A study of Homo sapiens with 8 samples.

Results

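The miR-26 family guide arms are hsa-miR-26a-5p and hsa-miR-26b-5p (miR-26a-5p and miR-26b-5p below), the strands of the miR-26 hairpins that are loaded into the silencing complex. They were chosen by name, and they are 2 of the 1887 human miRNAs on the array. PC-3 cells, a human prostate cancer line, were assayed after 24 h with DMSO as the solvent control, with 60 µM luteolin, with 60 µM gefitinib, or with luteolin plus gefitinib at 60 µM each. Gefitinib inhibits the EGF receptor kinase, and luteolin is a flavonoid found in plants. Both drugs were dissolved in DMSO before they were added. Each treatment had 2 one-colour Agilent arrays of total RNA. The labels call them biological replicates, and the study's methods call them duplicate microarrays. Neither says how the cultures were separated, so the p-values below set differences against the spread between these arrays. The gefitinib arrays differed by about the scanner software's own error: over the 365 miRNAs detected on all arrays the mean squared difference was 1.03 times that error, against 2.45 to 9.93 times in the other treatments. They were kept as 2 samples, and the values with both as 1 sample are given where they change a call. The question was whether either drug, or the pair, changed the level of these miRNAs.

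A miRNA guides the silencing complex to messages that pair with its seed, the bases near its 5′ end, and lowers their translation and stability. The miR-26 family has often been described as growth-restraining in tumour cells, and among its known targets is EZH2, the methyltransferase of Polycomb repressive complex 2, which is abundant in advanced prostate cancer. The family's hairpins lie inside genes of the CTDSP group, which encode small phosphatases of the RNA polymerase II C-terminal domain, so that host message and miRNA can come from the same transcript. The arrays read the mature miRNAs, and neither EZH2 nor the host messages were analysed here.

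Mature sequences for all 7 of the miRNAs named next were found in RefSeq (GRCh38.p14). They are shown because the shared seed defines the group and because the members differ so little. Probe sequences were not used here, so how far the probes tell the members apart was not tested. Bases 2 to 8, the seed, are in capitals.
miR-26a-5p: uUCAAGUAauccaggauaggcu
miR-26b-5p: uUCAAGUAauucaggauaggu
miR-4465: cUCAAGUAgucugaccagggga
miR-1297: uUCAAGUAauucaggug
miR-26a-1-3p: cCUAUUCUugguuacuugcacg
miR-26a-2-3p: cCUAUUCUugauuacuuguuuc
miR-26b-3p: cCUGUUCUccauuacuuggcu

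The guide arms are 22 bases (miR-26a-5p) and 21 bases (miR-26b-5p) long. Over the 21 shared positions 19 were identical, and the differences were C11U and C21U, with the miR-26a-5p base first and positions counted from 1 at the 5′ end. miR-26a-5p is made from MIR26A1 on chromosome 3, plus strand, within CTDSPL, and from MIR26A2 on chromosome 12, minus strand, within CTDSP2. Both hairpins give the same mature sequence, so the array cannot separate them. miR-26b-5p is made from MIR26B on chromosome 2, plus strand, within CTDSP1. Of the 2370 human mature miRNAs in the RefSeq table, 4 had this seed: the pair of guide arms, miR-4465 and miR-1297. miR-4465 comes from chromosome 6, outside the CTDSP genes, and matched miR-26a-5p at 11 of 22 positions.

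The scanner software detected both guide arms on all 8 arrays. Of the other miRNAs with their seed, miR-4465 was detected on 8 arrays and miR-1297 on 0. The passenger arms miR-26a-1-3p, miR-26a-2-3p and miR-26b-3p, the strands opposite the guides in the hairpins, were detected on 0 of 8 arrays. The signal of each guide arm was therefore the only readout of its hairpin. Levels are given as the software's total signal per miRNA, scaled to the 75th percentile of the 365 miRNAs detected on every array. That percentile ran from 60.5 to 92.7 before scaling, and between 395 and 481 miRNAs were detected per array. PC-3 is of epithelial origin, but of 3 miRNAs known as epithelial, miR-200c-3p and miR-141-3p were detected on 0 arrays and miR-205-5p on 6. Of 6 blood, muscle and liver miRNAs, miR-142-3p was detected on 1 array and the other 5 on 0. In bulk RNA of this kind, fewer cells with a miRNA and less of it per cell cannot be told apart.

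The level of miR-26a-5p stayed within a narrow band under all 4 treatments. In DMSO the scaled signals were 120.3 and 141.1 on the 2 arrays. With luteolin they were 138.6 and 148.1. With gefitinib they were 129.7 and 138.2. With both drugs they were 121.4 and 119.0. The highest of the 8 values was 1.24 times the lowest, and the DMSO arrays, which spanned most of that range, overlapped each drug group. Without scaling, the signals ran from 92.0 to 163.7, a ratio of 1.78.

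By mean level, luteolin stood first at 143 ± 6.72 (SD, n = 2), then gefitinib at 134 ± 6.01, DMSO at 131 ± 14.7 and both drugs at 120 ± 1.71. Gefitinib and DMSO differed by less than the spread of either pair, and so did DMSO and the combination when set against the DMSO spread. The luteolin and gefitinib arrays did not overlap, but the lowest luteolin value of 138.6 and the highest gefitinib value of 138.2 nearly met. The combination lay below both single-drug groups with no overlap, but neither difference was called (limma adjusted p 0.483 against luteolin and 0.817 against gefitinib). How many of all tested miRNAs have groups without overlap was not counted.

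**Figure D1:**
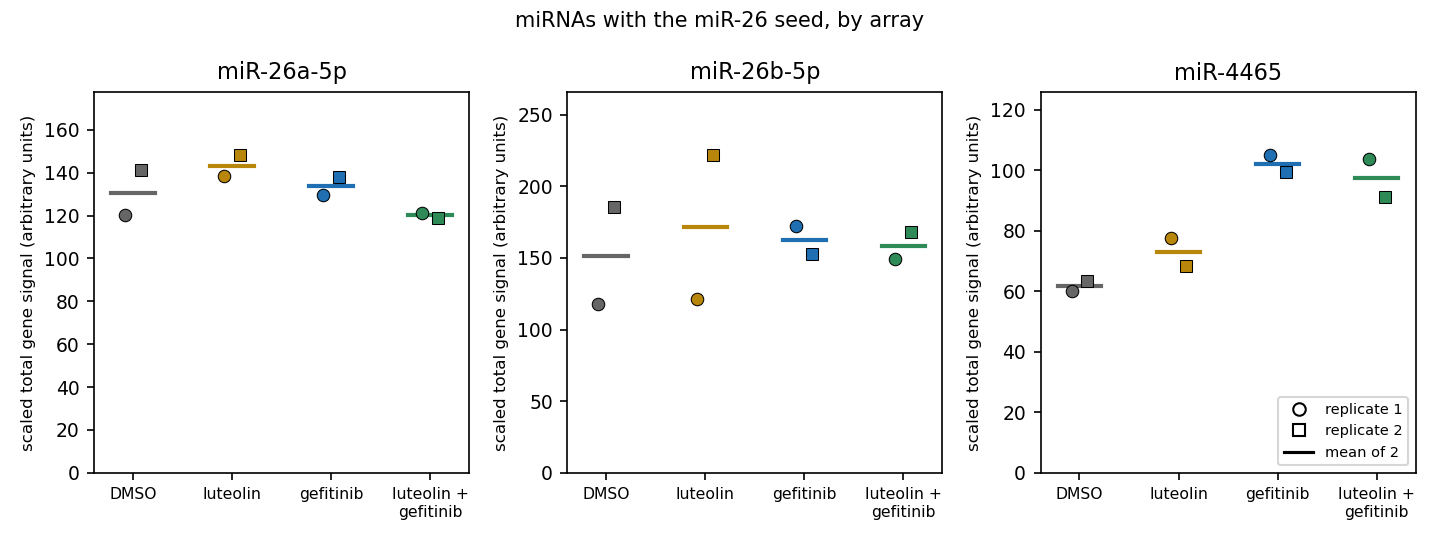
Scaled total gene signal of the 3 detected miRNAs with the miR-26 seed on each of the 8 arrays, by treatment, each panel on its own axis from 0. Circles are replicate 1, squares replicate 2 and bars the mean of 2. miR-26a-5p lay between 119.0 and 148.1, the replicates of miR-26b-5p were far apart in DMSO and luteolin, and both gefitinib-containing groups of miR-4465 lay above the other groups.

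None of the differences in miR-26a-5p passed the test. Luteolin against DMSO gave a log2 difference of 0.14 (SE 0.14), with a 95% interval from -0.21 to 0.49 and a limma adjusted p of 0.910. Gefitinib against DMSO gave 0.04, from -0.31 to 0.39 (limma adjusted p 0.899). Both drugs against DMSO gave -0.12, from -0.47 to 0.23 (limma adjusted p 0.661). These intervals reach from 0.724-fold to 1.40-fold over the 3 comparisons with DMSO. The values moved with the arrays and the scaling. With 1 array left out, luteolin ran from 0.022 (without DMSO replicate 1) to 0.25 (without DMSO replicate 2), and both drugs from -0.23 to -0.0011. Luteolin was 0.29 without scaling, 0.25 with scaling to human small-RNA control probes and 0.36 with scaling to spike-in probes. Gefitinib was 0.41 without scaling, 0.40 with the small-RNA controls and 0.53 with the spike-ins. The gefitinib value turned negative in 5 of 28 alternatives, down to -0.075 without DMSO replicate 1. Both drugs gave 0.31 with the small-RNA controls and 0.087 with the spike-ins, and passed the threshold at -0.18 (limma adjusted p 0.0464) with normexp background correction and quantile normalization.

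Both drugs against luteolin came to -0.25 on the log2 scale (SE 0.14, limma adjusted p 0.483), a 0.839-fold ratio, with a 95% interval from -0.60 to 0.10. Both drugs against gefitinib gave -0.16 (limma adjusted p 0.817), and gefitinib against luteolin gave -0.10 (limma adjusted p 0.865). The interaction, which is the effect of both drugs minus the sum of the single effects, was -0.29 (SE 0.20, limma adjusted p 0.838). With 1 array left out, the interaction ran from -0.41 (without DMSO replicate 2) to -0.18 (without DMSO replicate 1), and gefitinib against luteolin from -0.15 (without luteolin replicate 1) to -0.049 (without luteolin replicate 2). Gefitinib against luteolin turned in 3 of 28 alternatives, to 0.12 without scaling, 0.15 with the small-RNA controls and 0.17 with the spike-ins. Both drugs against luteolin passed the threshold with normexp and quantile normalization, at -0.31 and a limma adjusted p of 0.0183, and was 0.066 with the small-RNA controls. Without scaling, both drugs against gefitinib was -0.49 and the interaction -0.78, and with the spike-ins they were -0.45 and -0.81.

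The level of miR-26b-5p varied more between replicates than between treatments. In DMSO its scaled signals were 117.7 and 185.6. With luteolin they were 121.3 and 221.6. With gefitinib they were 172.3 and 152.5. With both drugs they were 149.3 and 167.8. The lowest and the highest array both belonged to groups whose other array was at the opposite end, so all 4 groups overlapped.

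The group means of miR-26b-5p were 171 ± 70.9 (SD, n = 2) with luteolin, 162 ± 14.0 with gefitinib, 159 ± 13.1 with both drugs and 152 ± 48.0 in DMSO, and no neighbours in that order differed beyond their spread. Of the variance of its log2 signal over the 8 arrays, 95.9% lay within groups, against 35.1% for miR-26a-5p. Its replicates stood 0.66 apart on the log2 scale in DMSO, a wider gap than in 85.2% of the 365 miRNAs detected on all arrays. In luteolin the gap was 0.87, wider than in 84.4%. In gefitinib it was 0.18 and with both drugs 0.17. The replicates of miR-26a-5p were closer in each of the 4 groups, at 0.23, 0.10, 0.09 and 0.03 in the same order of treatments. Over all 365 miRNAs the median gap was 0.32 in DMSO, 0.39 in luteolin, 0.10 in gefitinib and 0.19 with both drugs, so the DMSO and luteolin pairs were also the wider ones over all miRNAs.

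None of the differences in miR-26b-5p passed the test either. Against DMSO the log2 differences were 0.15 for luteolin (limma adjusted p 0.981), 0.13 for gefitinib (limma adjusted p 0.868) and 0.10 for both drugs (limma adjusted p 0.908), each with an SE of 0.35. The interval for luteolin ran from -0.72 to 1.02, or from 0.606-fold to 2.03-fold, which left room for a fold above and below 1. Both drugs against luteolin gave -0.05, both drugs against gefitinib -0.03 and gefitinib against luteolin -0.02, each with a limma adjusted p of 1. The interaction was -0.18 (SE 0.50, limma adjusted p 0.986). The values moved with the scaling, and none of the following was called. Against DMSO, without scaling, with the small-RNA controls and with the spike-ins in turn, luteolin was 0.30, 0.26 and 0.37, gefitinib 0.50, 0.49 and 0.63, and both drugs 0.13, 0.53 and 0.30. In the same order the interaction was -0.68, -0.23 and -0.70, and both drugs against gefitinib -0.37, 0.035 and -0.32. Leaving out 1 array was enough to turn the luteolin value of miR-26b-5p: it was -0.28 without luteolin replicate 2, -0.18 without DMSO replicate 1, 0.48 without DMSO replicate 2 and 0.58 without luteolin replicate 1. Set against the DMSO array of the same number, which is also the same row of the slide, miR-26b-5p was 1.03 and 1.19 times as high with luteolin, 1.46 and 0.822 times with gefitinib, and 1.27 and 0.904 times with both drugs.

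Across the 7 comparisons, 0 of the 2 guide arms were called by limma at an adjusted p under 0.05, and 0 at an unadjusted p under 0.05, which 41, 114 and 124 of the 480 tested miRNAs had for luteolin, gefitinib and both drugs against DMSO. The share of all 480 tested miRNAs called was 2.08% for luteolin against DMSO, 12.1% for gefitinib against DMSO and 12.1% for both drugs against DMSO. It was 5.00% for gefitinib against luteolin, 1.88% for both drugs against luteolin, 4.58% for both drugs against gefitinib and 3.33% for the interaction. With 2 members, a count of 0 is not far from any of these shares. Tested for any difference among the 4 treatments, miR-26a-5p had a limma adjusted p of 0.709 and miR-26b-5p of 1.00, where 11.7% of the 480 were called. An exact permutation test over the 105 ways to divide 8 arrays into 4 pairs gave p = 0.219 for miR-26a-5p and p = 0.971 for miR-26b-5p (adjusted over both, 0.438 and 0.971), with 0.00952 the smallest p it can give. A comparison of 2 arrays with 2 could not go below 0.333 in such a test.

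**Figure D2:**
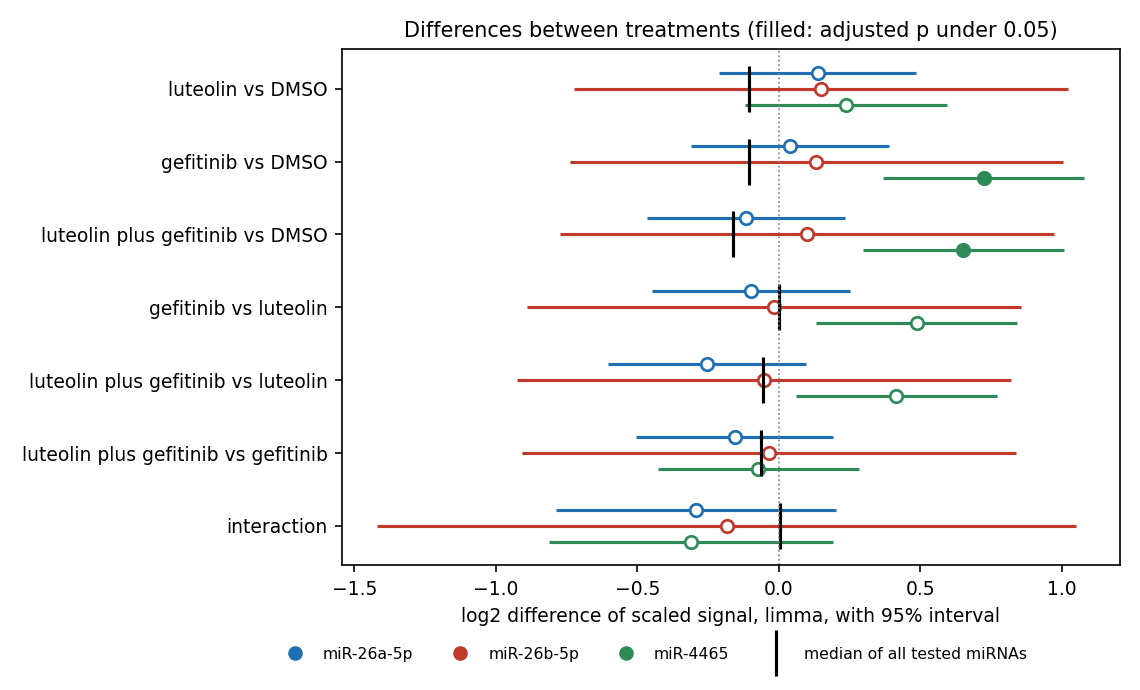
Log2 differences of scaled signal between treatments for the 3 detected miRNAs with the miR-26 seed, from limma, with 95% intervals as horizontal lines. Filled circles passed an adjusted p of 0.05, and vertical ticks mark the median over all 480 tested miRNAs. All intervals of miR-26a-5p and miR-26b-5p span 0, and those of miR-26b-5p are the widest.

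The median difference over all tested miRNAs was -0.10 for luteolin, -0.10 for gefitinib and -0.16 for both drugs against DMSO. Set against those medians, miR-26a-5p stood 0.24, 0.14 and 0.04 higher, and miR-26b-5p 0.25, 0.24 and 0.26 higher. The ratio of the members does not depend on how whole arrays are scaled. miR-26a-5p over miR-26b-5p differed from DMSO by -0.01 on the log2 scale with luteolin, -0.09 with gefitinib and -0.22 with both drugs, each with an SE of 0.33. With 1 array left out the luteolin value ran from -0.40 to 0.37, the gefitinib value from -0.31 to 0.12 and that of both drugs from -0.43 to -0.0020. An exact permutation test of the ratio over the 4 treatments gave p = 0.924. Over the 8 arrays the log2 signals of the members had a Pearson r of 0.48 and a Spearman rho of 0.55, given as a description of arrays that share a slide and a scan.

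Each guide arm was read by 2 probes with 15 spots each, and all 240 spots per miRNA over the 8 arrays were well above background. For miR-26b-5p the probes moved together. Their ratio stayed between 1.39 and 1.46 over the arrays and their log2 signals had r = 0.997. The wide replicate gaps of miR-26b-5p in DMSO and luteolin were thus present in both of its probes: probe 1 read 49.3 and 75.4 in DMSO and 49.9 and 89.9 in luteolin, and probe 2 read 68.4 and 110.1 in DMSO and 71.4 and 131.7 in luteolin.

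For miR-26a-5p the probes did not move together, with a ratio from 2.05 to 2.74 and r = 0.438. With gefitinib, probe 1 read 34.7 and 37.7, below its DMSO values of 39.4 and 40.9. Probe 2 read 95.04 and 100.6, against 80.8 and 100.2 in DMSO. The difference of gefitinib from DMSO was -0.15 by probe 1 and 0.12 by probe 2, on the log2 scale. For luteolin (0.11 and 0.15) and for both drugs (-0.18 and -0.09) the probes gave the same sign.

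The spots of probe 1 of miR-26a-5p fell into separate levels on the gefitinib arrays. Of its 15 spots, 6 lay under 80% of the probe's median on gefitinib replicate 1 and 6 on gefitinib replicate 2, and these were the same 6 positions of the array layout. They read between 50.9% and 76.8% of the median. With both drugs, 2 other positions were low on each of the 2 arrays, at 48.9% to 67.0% of the median. In DMSO and luteolin 0 of 15 spots were low on any array. The software marked those 2 positions as outliers with both drugs and left them out, but it kept the 6 low spots of the gefitinib arrays, whose coefficient of variation was 26.4% and 18.6%. In probe 2 of miR-26a-5p, 1 position was low on both arrays with both drugs, at 67.1% to 71.5% of the median. So was 1 position in probe 2 of miR-4465, at 72.2% to 79.3%. In miR-26b-5p no position was low on both arrays of any treatment.

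**Figure D3:**
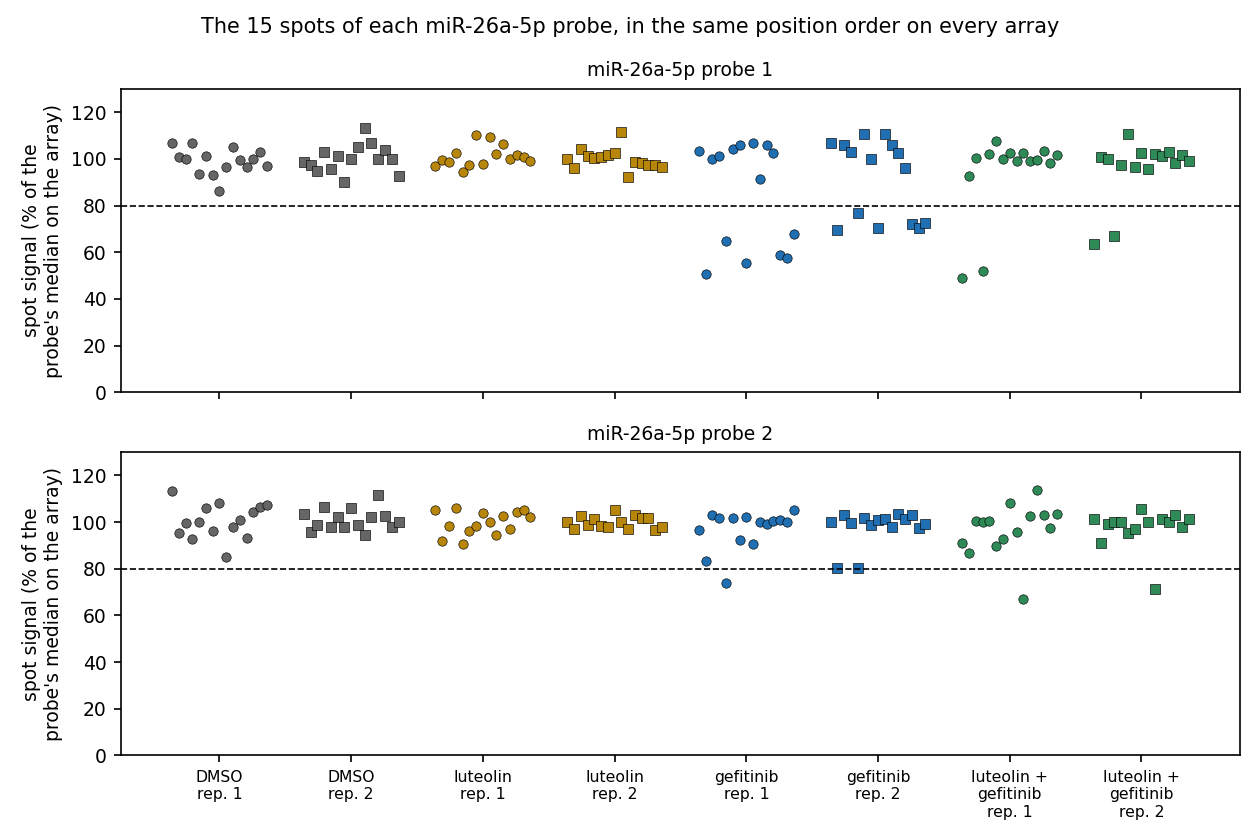
Signal of each of the 15 spots of both miR-26a-5p probes, as a percentage of the probe's median on that array, for all 8 arrays. Spots run from left to right in the same order of position on every array, the dashed line marks 80%, circles are replicate 1 and squares replicate 2. In probe 1 the same 6 positions were low on both gefitinib arrays and another 2 on both arrays with both drugs. In probe 2, 1 position was low on both arrays with both drugs.

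Low spots at shared positions were not limited to miR-26a-5p. Over 10950 spots of the 365 miRNAs detected on all arrays, the log2 deviation of a spot from its probe's median had r = 0.515 between the gefitinib arrays and r = 0.542 between the arrays with both drugs. Of these spots, 533 lay under 80% of the median on both gefitinib arrays and 652 on both arrays with both drugs, against 262 in DMSO and 234 in luteolin. The deviations had r = 0.125 between the DMSO arrays and r = 0.078 between the luteolin arrays. Over the 24 pairs of arrays from different treatments r ran from -0.052 to 0.106. The file headers place the 8 arrays on 1 slide in 2 rows of 4, with the replicates in different rows and each treatment in a column of its own. Column on the slide and treatment cannot be told apart here.

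With the 8 low positions of probe 1 left out on every array, the gefitinib value of that probe moved from -0.14 to 0.08 in means of spot signals. A rise follows from the choice, since 6 of these positions were picked as low on the gefitinib arrays. With positions low on any array left out of both probes, miR-26a-5p as a whole gave 0.15 for luteolin, 0.09 for gefitinib and -0.11 for both drugs against DMSO, and -0.26 for both drugs against luteolin. A fit of all miRNAs on the median spot of each probe, chosen after seeing these spots, gave 0.15, 0.10, -0.06 and -0.21 in the same order, with limma adjusted p of 0.893, 0.751, 0.883 and 0.674. The fit on median spots called neither member in any comparison.

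The third detected miRNA of this seed was miR-4465, which stood higher with gefitinib. Its scaled signals were 60.2 and 63.4 in DMSO and 77.6 and 68.4 with luteolin. With gefitinib they were 104.9 and 99.4, and with both drugs 103.6 and 91.1. On this scale all 4 arrays with gefitinib lay above the 4 arrays without it. Without scaling they did not, since the second array with both drugs read 70.4 and the first with luteolin 82.8. How many of all tested miRNAs separate in this way was not counted.

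miR-4465 rose 1.65-fold with gefitinib (log2 0.72, SE 0.14, limma adjusted p 0.0331) and 1.57-fold with both drugs (log2 0.65, limma adjusted p 0.0390), where 12.1% of tested miRNAs were called in each comparison. Its luteolin value was 0.24 (limma adjusted p 0.781), and both drugs against gefitinib gave -0.07 (limma adjusted p 0.981). Tested for any difference among the treatments it had a limma adjusted p of 0.0604 and an exact permutation p of 0.0190. That permutation p was not adjusted for the other miRNAs tested in this way. Its probes kept a ratio between 0.964 and 1.03 over the arrays. Leaving out any 1 array of the DMSO, gefitinib or combined groups ended both calls, with limma adjusted p from 0.0504 to 0.167 for gefitinib and from 0.0844 to 0.141 for both drugs. The log2 differences stayed between 0.69 and 0.76 for gefitinib and between 0.56 and 0.75 for both drugs. With both gefitinib arrays as 1 sample the differences were the same but both calls were lost as well (limma adjusted p 0.152 and 0.0897), and the count of miRNAs called for gefitinib against DMSO went from 58 to 14. Without scaling between arrays neither call was made, at 1.09 for gefitinib (limma adjusted p 0.0702) and 0.68 for both drugs (limma adjusted p 0.296). With the spike-ins gefitinib was called at 1.22 (limma adjusted p 0.0271), while both drugs at 0.86 were not (limma adjusted p 0.123). Both were called with the small-RNA controls, at 1.09 and 1.08, and with normexp and quantile normalization, at 0.49 and 0.38.

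Set against miR-26a-5p on the same arrays, miR-4465 was 0.68 higher on the log2 scale with gefitinib than in DMSO (SE 0.14, 95% interval 0.30 to 1.07) and 0.77 higher with both drugs (0.38 to 1.15). With 1 array left out these differences of the ratio ran from 0.60 to 0.77 and from 0.69 to 0.85. The lowest values under any alternative were 0.52 and 0.57. The exact permutation p of that ratio over the 4 treatments was 0.0571, or 0.171 adjusted over the 3 ratios examined. Against miR-26b-5p the values were 0.59 and 0.55 with an SE of 0.44 (exact permutation p 0.410, adjusted 0.614), and with 1 array left out they ran from 0.30 to 0.88 and from 0.26 to 0.84. The ratios with miR-4465 were chosen after its values were seen. The intervals of the ratio to miR-26a-5p lay above 0 for both gefitinib-containing groups, while its permutation p did not pass 0.05, and those of the ratio to miR-26b-5p spanned 0.

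Other miRNAs known for targeting EZH2 were taken as a list of 9. Of these, miR-101-3p, let-7a-5p, let-7b-5p and let-7c were detected on all 8 arrays, and miR-138-5p, miR-124-3p, miR-214-3p, miR-217 and miR-144-3p on 0. Of the 4 that were tested, 0 were called higher and 0 lower in any of the 7 comparisons, where 1.88% to 12.1% of all tested miRNAs were called. Their median difference from DMSO was 0.18 with luteolin, 0.02 with gefitinib and 0.20 with both drugs, beside -0.10, -0.10 and -0.16 over all tested miRNAs. miR-101-3p, the best known of them as a repressor of EZH2, read 26.2 and 30.8 in DMSO, 24.7 and 27.1 with luteolin, 24.3 and 24.4 with gefitinib, and 24.2 and 24.6 with both drugs. Its arrays with gefitinib lay below both DMSO arrays, but the log2 differences of -0.22 and -0.22 had limma adjusted p of 0.466 and 0.414. Without scaling the gefitinib direction turned, with 28.2 and 28.9 against 24.6 and 27.1 in DMSO, and both drugs read 26.9 and 19.0.

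The miRNAs whose profiles were most like those of the members were named by the Pearson r of log2 scaled signal over the 8 arrays, among 363 candidates, so that their order of arrays follows from the choice. For miR-26b-5p they were let-7f-5p (r = 0.987) and let-7g-5p (r = 0.982), guide arms of the let-7 family, and miR-30c-5p (r = 0.980), where the median candidate had r = 0.021. Within treatments the r values were 0.996, 0.986 and 0.980, and over the 4 treatment means they were 0.752, 0.868 and 0.998. let-7f-5p read 1459 and 2319 in DMSO and 1473 and 2633 with luteolin. Without luteolin replicate 2 and DMSO replicate 1, the arrays farthest from the median, r was 0.972, 0.964 and 0.946.

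For miR-26a-5p the nearest profile was miR-194-5p (r = 0.977), followed by miR-152 (r = 0.804) and miR-103a-3p (r = 0.803), against a median of 0.141. miR-194-5p read 2.57 and 5.04 in DMSO, 4.12 and 5.72 with luteolin, 3.59 and 4.56 with gefitinib, and 2.47 and 2.80 with both drugs. It was dim. Its difference of both drugs from luteolin was -0.88 (limma adjusted p 0.328). Without the farthest arrays, the second of both drugs and the first of DMSO, r was 0.983, 0.696 and 0.733. Arrays, slide and scan are shared by all of these profiles.

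**Figure D4:**
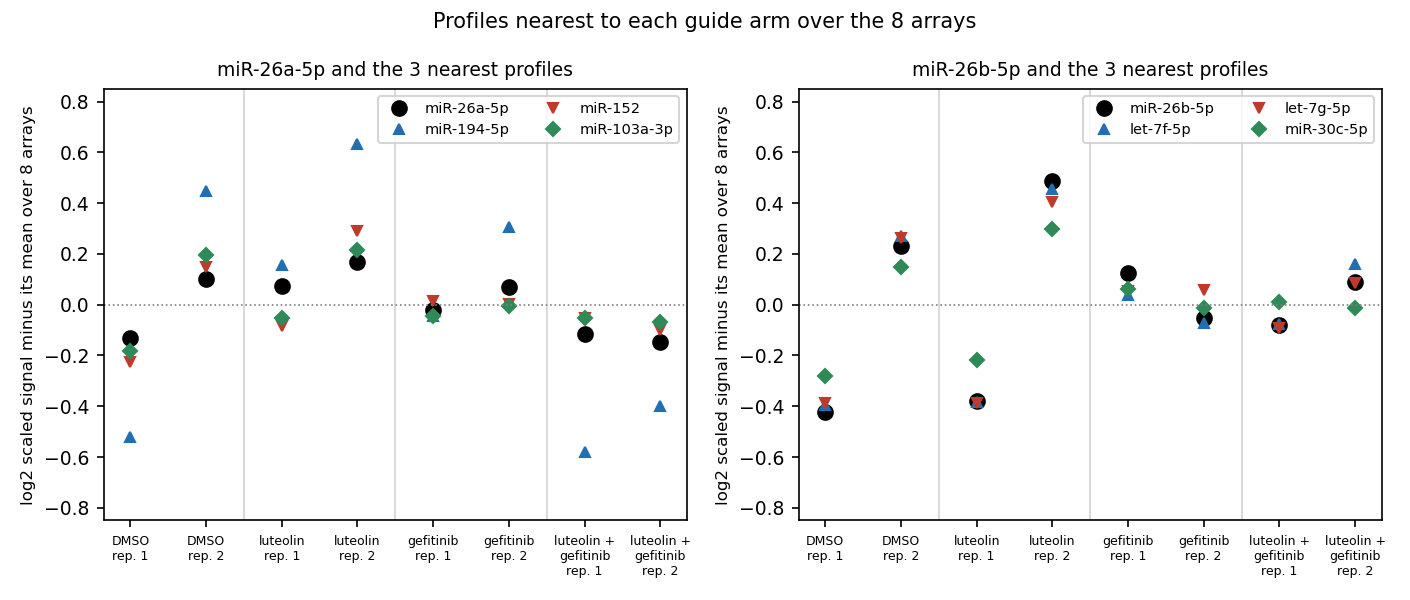
Log2 scaled signal minus its mean over the 8 arrays for each guide arm (black circles) and the 3 miRNAs with the highest Pearson r to it, array by array with treatments separated by grey lines. The profiles in the right panel share the low first and high second replicates of DMSO and luteolin with miR-26b-5p.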

How the data were processed

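PC-3 cells under 4 treatments were measured on 8 one-colour Agilent miRNA arrays, 2 per treatment, grouped by the treatment in the labels. The authors labelled total RNA with Cy3 and extracted each array with Agilent Feature Extraction at default settings, so the deposited intensity values are linear and background-subtracted, given per spot and as a sum per miRNA, and not normalized between arrays. The deposited series table held the same intensity within 0.5% for 100% of miRNA spots. As an alternative it was averaged over all spots, whereas the mean of the processed signal left out spots that the software marked as outliers. Host genes were taken from positions in RefSeq (GRCh38.p14) alone, and no coordinates are given, since the array files name another build.

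The total signal per miRNA was scaled to each array's 75th percentile over the 365 miRNAs detected on all 8 arrays, the floor was set at 0.609, the median over arrays of the lowest detected signal, and log2 was taken. All 480 miRNAs that 1 or more treatments had on both arrays were fitted together in limma 3.58.1 (R 4.3.3, with jsonlite 2.0.0), with 4 residual degrees of freedom plus 1.66 from the prior. P-values were two-sided and adjusted by Benjamini-Hochberg within each comparison over the 480, with a threshold of 0.05. Intervals are at 95%. Ratios of miRNAs were compared in a linear model of the 4 treatments, without limma. The fit was tested on simulated data. The number of arrays limits the precision.

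Alternatives covered scaling, background correction, floors, filters, spot summaries, other fits, the Student's t-test of the study's methods, a replicate block, and arrays left out in turn. The members, the lists and the tests were chosen with earlier results of these data known. The named miRNAs were the members, their passenger arms, the miRNAs with their seed, the list of 9 known for targeting EZH2, and the 3 with the highest Pearson r to each member. The spot positions, the fit on median spots and the ratios with miR-4465 were added after seeing the data.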

Additional observations from a re-analysis of the deposited data

How the results depend on the processing

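The members had 440 values under alternatives, of which 3 passed an adjusted p of 0.05 and 34 had the opposite sign, 14 of these with 1 array left out. The 3 were of miR-26a-5p after normexp background correction and quantile normalization: -0.18 for both drugs against DMSO (limma adjusted p 0.0464), -0.31 for both drugs against luteolin (0.0183), and an adjusted p of 0.0297 for any difference among treatments. The cause was not tested.

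For miR-26a-5p, gefitinib against DMSO was -0.021 with scaling to the median, -0.029 in the deposited series table and -0.025 with normexp. Both drugs against DMSO was 0.31 with scaling to 5 human small-RNA controls and 0.087 with scaling to 4 spike-ins. Gefitinib against luteolin was 0.12 without scaling, 0.15 with the small-RNA controls and 0.17 with the spike-ins. Both drugs against luteolin was 0.066 with the small-RNA controls. For miR-26b-5p, gefitinib against luteolin was 0.20 without scaling, 0.078 with quantile normalization, 0.019 with cyclic loess, 0.23 with the small-RNA controls, 0.25 with the spike-ins and 0.012 with normexp. Both drugs against luteolin was 0.023 with quantile normalization and 0.27 with the small-RNA controls. Both drugs against gefitinib was 0.039 with scaling to the median, 0.035 with the small-RNA controls and 0.0020 on median spots, and for miR-4465 it was 0.00084 with scaling to the median and 0.0048 on median spots.

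With 1 array left out, where the lone array of a treatment is assumed to vary like the others, miR-26a-5p for gefitinib against DMSO ran from -0.075 to 0.16. miR-26b-5p against DMSO ran from -0.28 to 0.58 for luteolin, -0.20 to 0.46 for gefitinib and -0.23 to 0.43 for both drugs. Its other comparisons ran from -0.45 to 0.42 for gefitinib against luteolin, -0.49 to 0.38 for both drugs against luteolin, -0.12 to 0.054 for both drugs against gefitinib, and -0.62 to 0.25 for the interaction. The ratio of miR-26a-5p to miR-26b-5p ran from -0.40 to 0.37 for luteolin against DMSO, -0.47 to 0.31 for gefitinib against luteolin, -0.59 to 0.18 for both drugs against luteolin and -0.50 to 0.28 for the interaction. miR-4465 for both drugs against gefitinib ran from -0.17 to 0.021.

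The calls of miR-4465 against DMSO were lost in 10 of 28 alternatives for gefitinib and 15 of 28 for both drugs, with limma adjusted p from 0.0068 to 0.167 and from 0.0051 to 0.296. Counts of calls among all miRNAs went from 10 to between 0 and 18 for luteolin, from 58 to between 14 and 73 for gefitinib, and from 58 to between 12 and 99 for both drugs against DMSO. They went from 24 to between 0 and 61, from 9 to between 0 and 41 and from 22 to between 7 and 41 for the comparisons among drugs, from 16 to between 1 and 24 for the interaction, and from 56 to between 21 and 81 for any difference.

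With the replicate block, the members kept their values, such as -0.25 for both drugs against luteolin in miR-26a-5p (limma adjusted p 0.360) and 0.15 for luteolin against DMSO in miR-26b-5p (0.900), and no call of either changed. It moved the count of calls for both drugs against luteolin from 9 to 5. The replicate number is also the row of the slide, and the labels tie it to no shared culture. Deviations of the first replicates correlated at 0.908 between DMSO and luteolin, 0.409 between DMSO and both drugs and 0.461 between luteolin and both drugs, but the gefitinib pair gave -0.135 with DMSO, -0.093 with luteolin and 0.065 with both drugs. With the gefitinib numbers crossed in the block, 11, 54 and 59 miRNAs were called against DMSO, 20, 4 and 22 among the drugs and 8 for the interaction.

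Scaling to the 75th percentile over all miRNAs was not run, since it fell on the software's placeholder of 0.1 on 5 of 8 arrays. The methods' t-test and the fits of the compared arrays alone give no value for the interaction or for any difference. At the methods' unadjusted p under 0.05 and fold over 2 the t-test called 13, 46 and 44 miRNAs against DMSO, or 0, 39 and 13 by adjusted p, and neither member. By unadjusted p alone, miR-26a-5p passed for both drugs against luteolin.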
